A study of Mus musculus with 4 samples.

Results

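The genes described here are 10 members of the bone morphogenetic protein (BMP) pathway, namely the ligands Bmp2 and Bmp4, the receptors Bmpr1a and Bmpr2, the pseudoreceptor Bambi, the inhibitory Smads Smad6 and Smad7, and the target genes Id1, Id2 and Id3. They were chosen by name, and every probe set whose only annotated gene symbol was one of these names was taken, which gave 16 of the 22626 probe sets that are not controls, for 10 of 12393 named genes. Hair follicles of dorsal skin from male mice at day 14 after birth were isolated with a laser from 8 micrometre frozen sections, and 50 to 70 follicles were pooled for each sample. The RNA was amplified and hybridised to 1-colour Affymetrix arrays, 2 for each genotype. The homozygous mice (HrHos / HrHos) have both copies of the recessive Hos:HR-1 hairless allele of Hr. The control mice (+/HrHos) have a single copy, so the mutant allele is present in all 4 samples and no wild-type mouse was measured. All came from N1 litters of a Hos:HR-1 male and an F1 female heterozygote (HR-1 crossed with ICR). The array titles give the controls the prefix WT and the numbers 3 and 4, and give the homozygotes the numbers 2 and 3. For homozygous replicate 3 the strain field gives the heterozygous genotype, against its title, and its source name carries the number 2 of the other homozygous sample. The title was followed here. The values of the 2 homozygous arrays are not copies of each other (SD of their log2 differences 0.595, r = 0.929 across tested probe sets, which are not independent replicates), but whether they come from separate mice is not stated. The 2 control arrays were the least alike of all pairs (SD 0.773, r = 0.884). Pairs across the genotypes had r from 0.906 to 0.931, so likeness between arrays did not follow genotype. The labels do not tie the arrays to separate animals, so the spread behind the p-values may be technical.

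BMP ligands are secreted proteins that bind a complex of type I and type II receptor kinases, of which Bmpr1a and Bmpr2 are examples. The activated complex phosphorylates Smad1, Smad5 and Smad9, which enter the nucleus with Smad4 and switch on target genes, among them the Id genes. Id proteins bind basic helix-loop-helix transcription factors and keep them from binding DNA. Bambi, Smad6 and Smad7 act as brakes on the pathway and are themselves induced by it. In the hair follicle, Bmp2 and Bmp4 are known to be made in the differentiating hair precursors and in the dermal papilla, and signalling through Bmpr1a is needed for hair shaft differentiation and for the rest phase of stem cells.

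In the follicles as a whole, Bambi, Smad7, Id2, Bmp2 and Smad6 read higher in both homozygous samples than in both heterozygous samples, and Bmpr1a and Bmpr2 read lower in both. Bmp4, Id1 and Id3 overlapped between the genotypes. None of the 10 differences passed the test over all probe sets (limma, adjusted p = 1 for each of the 15 member probe sets tested), and in the same fit 0 of 13576 probe sets (0%) passed at an adjusted p under 0.05. At an unadjusted p under 0.05 there were 0 of the 10 members and 312 of all probe sets tested (2.30%). A sample holds many cell types, so fewer cells of a type and less RNA per cell cannot be told apart in any of these values.

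**Figure D1:**
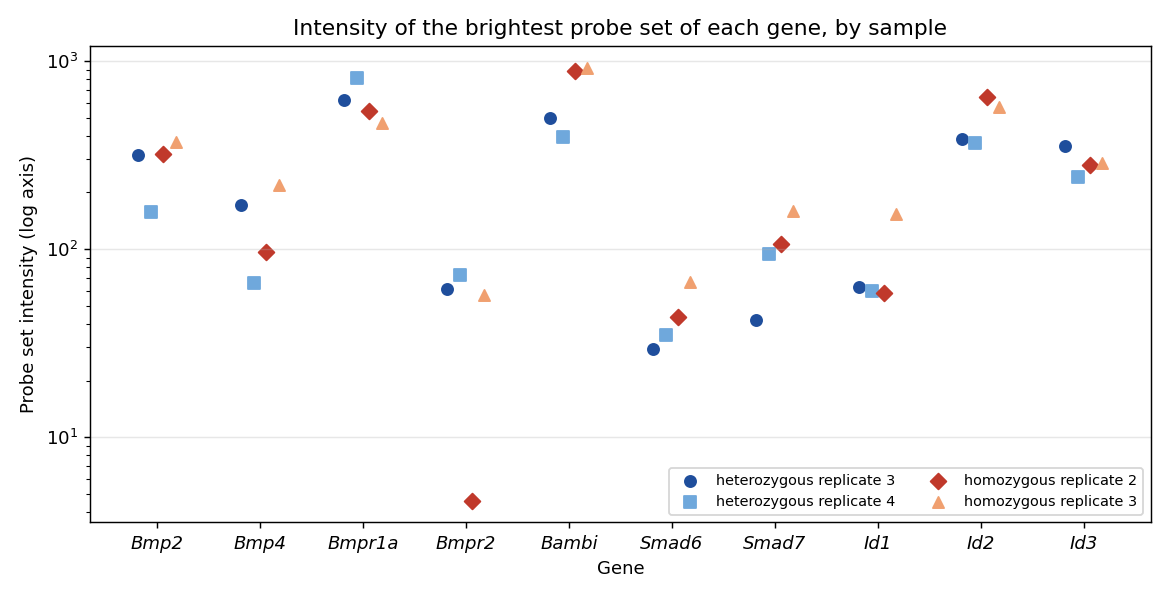
Intensity (vertical log axis, arbitrary units scaled per array by the authors) of the brightest probe set of each of the 10 genes (horizontal axis), with 1 point for each of the 4 samples. The points of Bambi and Id2 separate by genotype with narrow gaps within each group, while Id1 is high in homozygous replicate 3 alone and Bmpr2 is low in homozygous replicate 2 alone; levels of different probe sets are not comparable.

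Of the ligands, Bmp2 gave intensities of 316.1 and 156.7 in the controls against 318.9 and 372.1 in the homozygotes. Both homozygous values lay above both others, but homozygous replicate 2 exceeded heterozygous replicate 3 by little, and heterozygous replicate 4 was the low sample. On the log2 scale of the intensity plus 32, the difference (homozygous minus heterozygous, here and throughout) was 0.56 ± 0.47 (SE from limma over n = 2 and 2 samples, as for all errors below; 95% interval -0.48 to 1.59), against a gap of 0.88 between the heterozygous samples. Without heterozygous replicate 4 it was 0.11, and with quantile normalization of the arrays the groups overlapped.

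Bmp4 gave 171.6 and 66 in the controls, with 96.3 and 218.9 in the homozygotes. Each genotype thus had a high and a low sample, and the groups overlapped. At 0.35 ± 0.48, its log2 difference was smaller than the gap within either genotype (1.05 and 0.97). It was -0.18 without heterozygous replicate 4 and -0.14 without homozygous replicate 3, so its sign rested on single samples.

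Bmpr1a, the type I receptor kinase, was measured by 5 probe sets, all below 0 in the difference. The brightest of them, 1425492_at, gave 617.3 and 809.3 in the controls, with 542 and 466.4 in the homozygotes. Both homozygous samples lay below both heterozygous ones, and the log2 difference of -0.47 ± 0.46 was larger than the gaps within the genotypes (0.37 and 0.20). It was -0.28 without heterozygous replicate 4 and -0.18 with groups by the strain field.

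The other 4 probe sets of Bmpr1a gave smaller differences, from -0.32 to -0.08. Among these, 1451729_at gave 184.7 and 169.9 against 164 and 151.7 in the homozygotes, again without overlap, and differed by -0.14 ± 0.39 (log2). Probe set 1425493_at stood out by its spread within the controls, at 117.2 and 577.7, with 216.2 and 236.2 in the homozygous samples between them. Probe sets 1425494_s_at and 1425491_at overlapped between the groups. On the mean of the 5 probe sets the log2 difference was -0.25 and the genotypes overlapped. The suffix s marks a probe set whose probes can match more than a single transcript family, so that reading is less specific to Bmpr1a.

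Bmpr2, the type II receptor that binds BMP ligands, had a single, dim probe set. On the log2 scale its homozygous mean lay below the lowest mean that the filter kept, so it was tested only through its controls. Its intensity was 61.6 and 72.9 in the controls, with 4.6 and 57.3 in the homozygotes. Homozygous replicate 2 was the outlying sample, near the bottom of the scale, and homozygous replicate 3 lay only just below the controls. A log2 difference of -0.79 ± 0.46 (95% interval -1.81 to 0.23) was less in size than the gap of 1.29 between the homozygous samples. It was -0.15 without homozygous replicate 2.

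**Figure D2:**
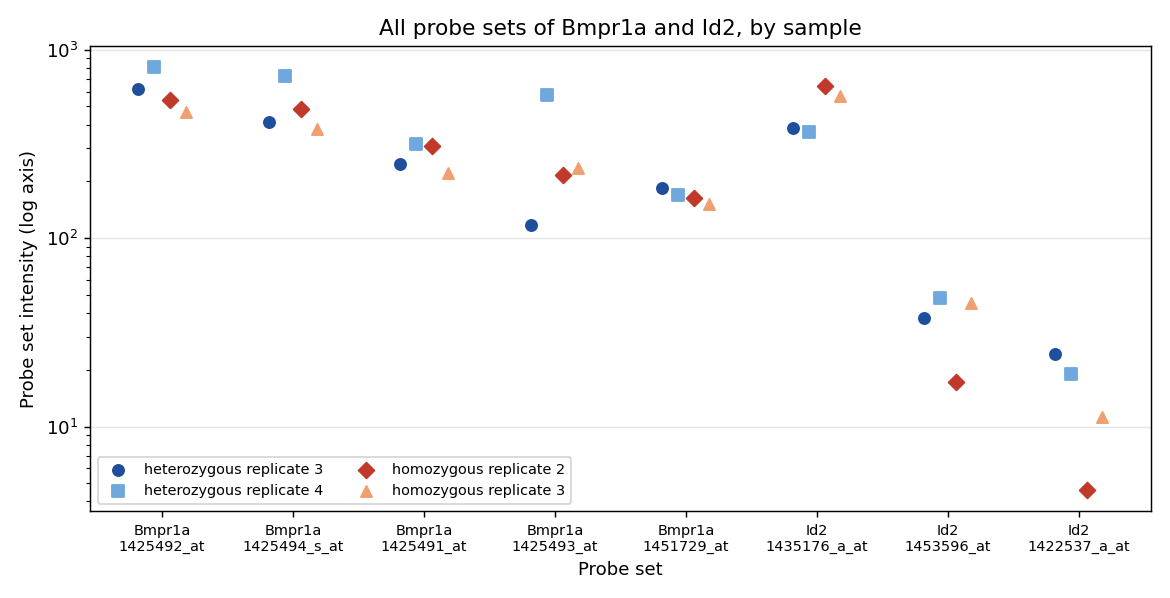
Intensity (vertical log axis) of the 5 probe sets of Bmpr1a and the 3 of Id2 (horizontal axis), with 1 point for each of the 4 samples. In Bmpr1a the brightest probe set and 1451729_at separate the genotypes with the homozygous samples lower. The brightest Id2 probe set separates them in the opposite direction from its dimmest one, which did not pass the filter on dim values.

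Bambi, a receptor-like protein without a kinase domain that blocks signalling by BMP and TGF-beta receptors, had the largest difference of the 10 members. Intensities were 500.5 and 395.1 in the controls, with 889.8 and 922.8 in the homozygotes. The homozygous values were close together and both lay far above the controls. On the log2 scale it differed by 0.98 ± 0.45 (1.97-fold), with a 95% interval from -0.03 to 1.98 and an unadjusted limma p of 0.0551. The gaps within the genotypes were 0.32 and 0.05. It lay at the 98.7th percentile of the differences of all tested probe sets, and the difference stayed between 0.62 and 1.14 over the 13 other settings tried.

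Smad7, which competes for activated receptors and recruits ubiquitin ligases to them, gave 42 and 94.2 in the controls against 105.8 and 159.1 in the homozygotes. The groups did not overlap, but heterozygous replicate 4 came close to homozygous replicate 2. Its log2 difference was 0.75 ± 0.40 (95% interval -0.14 to 1.64), about the size of the gap between the controls (0.77). Without heterozygous replicate 3 it was 0.36, and with groups by the strain field 0.18.

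Smad6, the inhibitory Smad that acts mainly on BMP signals, was dim, at 29.4 and 34.9 in the controls, with 43.5 and 66.5 in the homozygotes. Both homozygous samples were above both controls. The difference of 0.43 ± 0.38 (log2) exceeded the gaps within the genotypes (0.12 and 0.38). Under the strain field's grouping of homozygous replicate 3 the difference was 0.030. The values are near the added 32, so the difference on this scale is smaller than on the raw one.

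Of the Id genes, Id2 gave 385.9 and 365.3 in the controls, with 640.5 and 570.6 in the homozygotes, by its brightest probe set, 1435176_a_at. Both groups were tight and did not overlap. A log2 difference of 0.64 ± 0.45 (1.56-fold; 95% interval -0.34 to 1.63) was several times the gaps within the genotypes (0.07 and 0.16). The other 2 probe sets of Id2 were dim and had the opposite sign. Probe set 1453596_at gave 37.9 and 48.4 in the controls, with 17.3 and 45.5 in the homozygotes, which overlap. It passed the filter on dim values only through its controls. Probe set 1422537_a_at, the single member probe set that did not pass the filter on dim values, read 24.2 and 18.9 against 4.6 and 11.2, with both homozygous samples lower. On the mean of the tested probe sets of Id2 the log2 difference was 0.18. The sign thus differed between the probe sets of Id2, but the 2 of opposite sign were dim, so no direction of Id2 transcripts follows from them.

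Id1 gave 62.8 and 60 in the controls, with 58.3 and 154.5 in the homozygotes. Homozygous replicate 3 alone was high, and the other 3 samples were within a few units of each other. Its log2 difference of 0.47 ± 0.42 became -0.049 without homozygous replicate 3. Id3 gave 352.6 and 241.2 in the controls, and the homozygous values of 278.7 and 287.6 lay between them. It differed by -0.041 ± 0.44 on the log2 scale, with a 95% interval from -1.01 to 0.93, which spans about 2-fold in either direction. The Id genes thus did not share a pattern over the samples: Id2 parted the genotypes, Id1 a single sample, and Id3 neither.

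The upstream sequences of Id2, Id3 and Smad6 are shown because these genes are known direct targets of BMP Smads and gave different readings here. In the RefSeq promoter table (GRCm38.p6) 6 of the 10 members had an entry, Bmp4, Bmpr1a, Bmpr2, Id2, Id3 and Smad6, and Bmp2, Bambi, Smad7 and Id1 did not. Each line gives the 250 bases before the annotated start, 5′ to 3′ on the gene's strand, with capitals on matches to the GC-rich Smad1 motifs GGCGCC and GGAGCC on either strand. The regions are chr12:25096093-25096342 (minus strand) for Id2, chr4:136143572-136143821 (plus strand) for Id3 and chr9:64022060-64022309 (minus strand) for Smad6.
Id2: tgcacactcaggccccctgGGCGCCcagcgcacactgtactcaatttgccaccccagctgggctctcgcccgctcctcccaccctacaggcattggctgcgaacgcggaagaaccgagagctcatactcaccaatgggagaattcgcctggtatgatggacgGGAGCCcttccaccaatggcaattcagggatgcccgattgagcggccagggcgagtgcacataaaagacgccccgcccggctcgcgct
Id3: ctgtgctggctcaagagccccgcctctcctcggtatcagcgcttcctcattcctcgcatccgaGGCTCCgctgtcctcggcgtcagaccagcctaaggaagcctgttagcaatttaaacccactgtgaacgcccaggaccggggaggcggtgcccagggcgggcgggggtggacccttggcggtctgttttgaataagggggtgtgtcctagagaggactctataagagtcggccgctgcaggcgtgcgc
Smad6: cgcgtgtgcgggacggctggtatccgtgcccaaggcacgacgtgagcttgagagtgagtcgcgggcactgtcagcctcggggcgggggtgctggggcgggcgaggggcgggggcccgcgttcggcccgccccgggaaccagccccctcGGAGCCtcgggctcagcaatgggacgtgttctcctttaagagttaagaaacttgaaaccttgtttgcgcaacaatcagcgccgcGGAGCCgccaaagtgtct

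Id2 held a GGCGCC at -231 to -226 and a GGAGCC at -88 to -83 from the start. Id3 held a GGAGCC on the opposite strand at -187 to -182, and Smad6 held 2, at -102 to -97 and at -18 to -13. Of the 6 members with an entry, 3 held GGCGCC (Id2, Bmpr1a and Bmpr2) and 4 held GGAGCC (Id2, Id3, Smad6 and Bmp4). Over all 32851 promoter entries of the same length the shares were 9.59% and 26.0%. The shorter Smad motif GTCT was in 4 of the 6 and in 82.9% of all entries, and its palindrome GTCTAGAC, which contains it, in 0 of the 6 and in 0.167%. The upstream stretches of the 6 members were 62.8% to 78.8% G and C, and 2 of these motifs are rich in both bases. A match describes letters in this window and is neither a binding site nor a cause of any reading.

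Over the 10 members, 7 lay above 0 and 3 below, with a median log2 difference of 0.45, against 51.7% above 0 and a median of 0.015 over all probe sets tested. Both homozygotes exceeded both controls in 5 members, beside 13.6% of all probe sets tested. They lay below both controls in 2 members, Bmpr1a and Bmpr2, beside 13.3%, and Bmpr2 was tested only through its controls. With 2 samples against 2 an exact permutation test of a single gene cannot go below p = 0.333 (two-sided). The difference was larger than the gap within either genotype in 4 members, Bambi, Id2, Bmpr1a and Smad6, beside 16.1% of all probe sets tested. The 10 genes were picked with results of these arrays known, so these counts describe them and are not independent evidence.

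**Figure D3:**
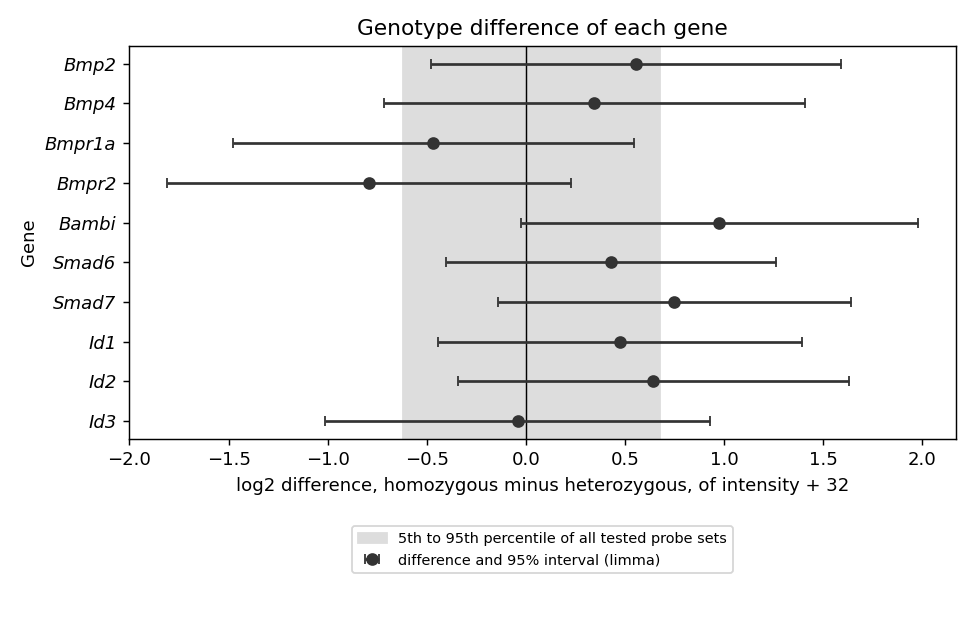
The log2 difference of each of the 10 genes (horizontal axis, homozygous minus heterozygous, of intensity plus 32) with its 95% interval from limma. The grey band spans the 5th to 95th percentile of all 13576 tested probe sets; every interval includes 0, Bambi and Smad7 lie above the band, and Bmpr2 lies below it.

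The samples contributed unequally. Homozygous replicate 3 had the highest value in 6 of the 10 members and heterozygous replicate 4 the lowest in 5. Relative to the mean of the 4 samples, the median log2 level of the members was -0.08 and -0.24 in the heterozygous samples, -0.009 in homozygous replicate 2 and 0.39 in homozygous replicate 3. Without homozygous replicate 3 the median difference of the members was 0.09, and with that sample grouped by its strain field it was -0.012. That grouping sets 1 homozygous sample against 3 heterozygous samples, and 3 members then did not overlap, beside 43.3% of all probe sets tested, so the count is not comparable with the 7 of the main grouping. The sample with the conflicting label was thus also the one with the highest median of these genes.

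Other genes of the pathway, taken from a list of 51, did not lean to either side. Of these 42 were on the array and 29 passed the filter, with 14 above 0 and 15 below and a median log2 difference of -0.008. None passed at an adjusted p under 0.05 (limma), and 1 had an unadjusted p under 0.05, beside 2.30% of all probe sets tested. Of the 29, 7 were higher and 6 lower in both homozygous samples, beside 13.6% and 13.3% of all probe sets tested. The 7 include Foxn1 and Smad5, which passed the filter on dim values only through their homozygous samples. The count of 7 therefore supports no statement about the list. By role, 2 of 3 further ligands and all 4 of the signalling Smads tested (Smad1, Smad4, Smad5 and Smad9) lay above 0. Of these Smads, Smad5 and Smad9 passed the filter on dim values only through their homozygous samples, so their sign carries no information. Smad1 and Smad4 differed by only 0.08 and 0.05 (log2), with overlap. All 4 further receptors and co-receptors tested (Acvr1, Acvr2a, Acvr2b and Eng) lay below 0. Of these, Acvr1, Acvr2b and Eng were near 0, at -0.06, -0.008 and -0.09 (log2), and overlapped between the genotypes. All 4 intracellular regulators (Ski, Skil, Tob1 and Tob2) also lay below 0, from -0.41 to -0.28. Secreted antagonists and modulators were split, with 4 above 0 and 2 below, and so were further targets, with 4 on each side.

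Foxn1, the transcription factor of hair differentiation that acts downstream of BMP signals in the hair matrix, gave 3.5 and 16.1 in the controls, with 65.9 and 76.2 in the homozygotes. The controls were near the bottom of the scale, and the gene passed the filter on dim values only through its homozygous samples. Its unadjusted p of 0.00664 in limma, the smallest of the list (adjusted p of 1), and its log2 difference of 1.32 ± 0.39, whose size depends on the added 32, therefore support no statement about the list. Acvr2a, a type II receptor for activins and BMPs, gave 530.2 and 864.2 against 422.9 and 291.9 and differed by -0.89 ± 0.48 (log2). It read lower in both homozygous samples.

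Among the secreted modulators, Bmp1, the protease that cleaves the antagonist chordin, gave 101.1 and 88.8 in the controls, with 11.3 and 81 in the homozygotes (-0.86 ± 0.46, log2). As in Bmpr2, homozygous replicate 2 was the low sample. Twsg1, a chordin-binding protein, read 47.6 and 53.2 against 75.5 and 111.3 (0.59 ± 0.36). The signalling Smad5 read 32.3 and 27.6 against 50.5 and 48.7, a difference of 0.40 ± 0.37 with tight groups. On the log2 scale its control mean lay below the lowest mean that the filter kept. Like Foxn1 it was therefore tested only through its homozygous samples, and its difference supports no statement about the list.

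Of the further ligands, Bmp7 gave 94 and 67.2 in the controls, with 113.2 and 121.1 in the homozygotes (0.42 ± 0.36). Gdf10, a BMP-like ligand, read 51.9 and 66.4 against 22.5 and 51.5 (-0.43 ± 0.39), with homozygous replicate 3 just below the controls. Gata3, an inner root sheath transcription factor, read 150 and 109.5 against 175.2 and 228.9 (0.53 ± 0.40). The antagonist genes Nog and Chrd were too dim to be tested, Nog at 3.6 to 9.6 over the 4 samples. Of 10 tested genes of the related TGF-beta branch, which also counts Skil, 4 lay above 0, with a median of -0.06. The groups did not overlap in 1, beside 26.9% of all probe sets tested. Its homozygous samples were lower, and it passed the filter only through its controls.

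**Figure D4:**
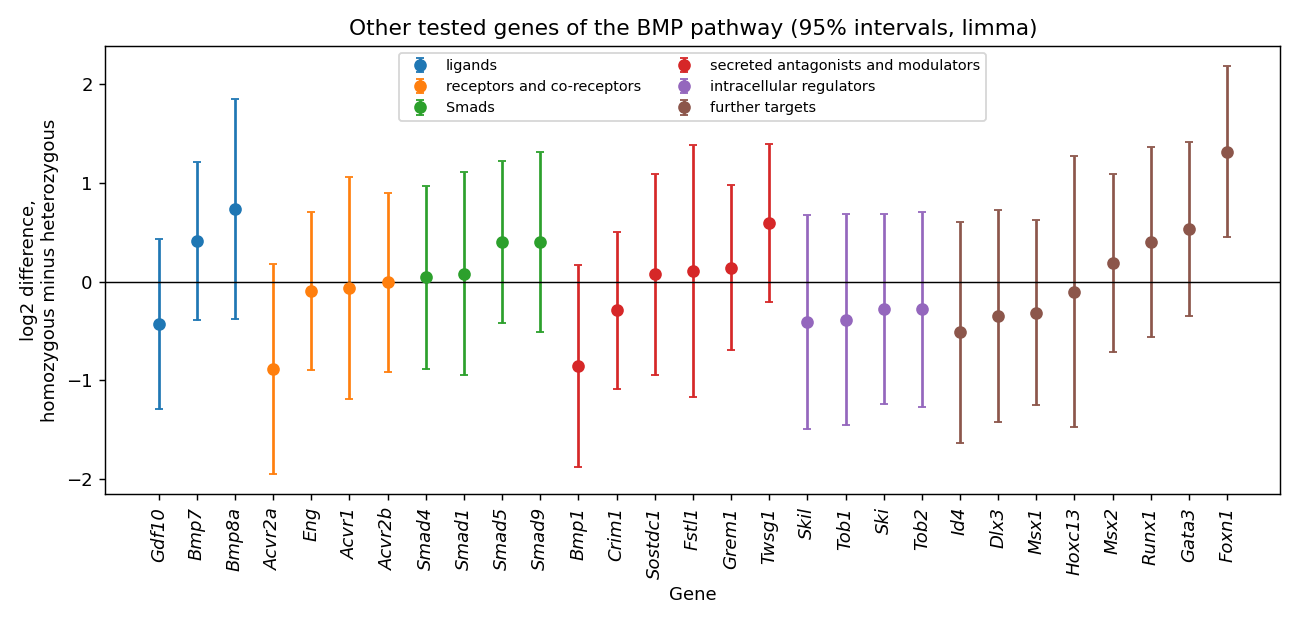
The log2 difference (vertical axis, homozygous minus heterozygous) of the 29 other BMP pathway genes that passed the filter, ordered by role (colour) and size, with 95% intervals from limma. Foxn1 is the gene whose interval, which carries no adjustment for multiple testing, does not include 0, and it passed the filter only through its homozygous samples.

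Markers of hair matrix and cortex leaned higher in homozygous samples, and those of dermal fibroblasts and adipocytes leaned lower. The other marker lists did not separate in this way. No marker passed at an adjusted p under 0.05 (limma), and the part of the markers in the readings of the BMP genes was not tested. Beside the counts below, 13.6% of all probe sets tested read higher and 13.3% lower in both homozygous samples. Of 9 hair matrix and cortex markers on the array, 8 passed the filter and 6 read higher in both homozygous samples, with a summed intensity of 7912 and 8366 in the controls, and 12736 and 14483 in the homozygotes, and Lef1 near the bottom of the scale. Hoxc13 and Msx2 of that list and Gata3 of the inner root sheath list are also among the pathway targets above. Of 10 dermal fibroblast markers 5 read lower in both homozygous samples, and the sum was 12374 and 10016 against 6102 and 6271. Of 7 dermal papilla markers, 5 passed the filter, 2 read higher and 1 lower in both homozygous samples, and the sum was 396 and 462 against 540 and 515, with Sox2 and Hhip near the bottom of the scale. Inner root sheath markers summed to 30826 and 27246 against 22513 and 23771, with 2 of 7 higher and 2 lower in both homozygous samples. Of 8 outer root sheath and bulge markers 1 read higher and 0 lower, and the sum was 7279 and 4490 against 5434 and 5828. Of 6 melanocyte markers 1 was higher and 1 lower, and the sum was 1705 and 4107 against 3617 and 6866. Of 6 adipocyte markers 3 read lower in both homozygous samples, and the sum was 13311 and 12059 against 10114 and 5612. Endothelial, skeletal muscle and leukocyte markers summed to at most 417, 546 and 269 in any sample. Of 6 markers in each of these lists, 5, 2 and 2 passed the filter, and 0 of those separated the genotypes.

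**Figure D5:**
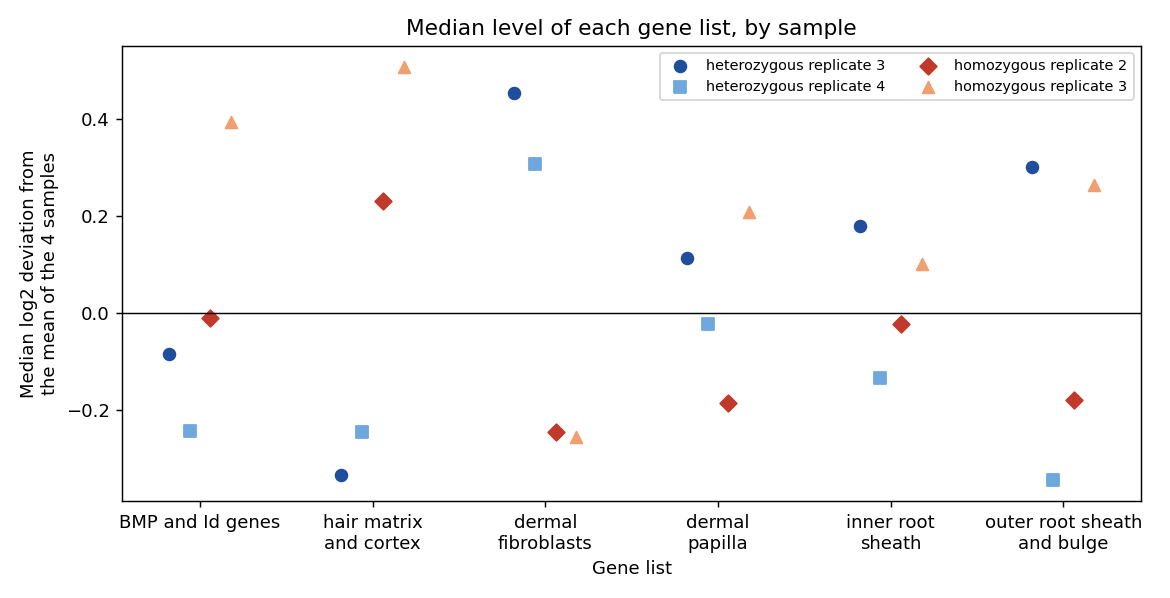
Median log2 deviation of each gene list from the mean of the 4 samples (vertical axis), for the 10 BMP and Id genes and for 5 lists of cell type markers (horizontal axis), with 1 point for each sample. The hair matrix and cortex list separates the genotypes upward in homozygous samples and the fibroblast list downward; homozygous replicate 3 is the highest sample of the BMP and Id genes at 0.39.

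Array measures also differed. The 18 bacterial and phage spike-in probe sets were all lower in both homozygous samples, by 1.05 on average on the log2 scale. For Gapdh, the 3′ probe set divided by the middle one was highest in heterozygous replicate 4, at 30.1 against 14.8 to 17.2 elsewhere, and the same quotient for Actb was lowest in the same sample, at 11.3 against 33.7 to 45.9. In all 4 samples the 3′ probe sets of both genes thus read many times higher than the middle ones. Median intensities were 43.5 to 52.6. The part of these measures in the readings above was not tested. Hr, the mutated gene, gave 293.5 and 80.9 in the controls, with 90.1 and 156.8 in the homozygotes, by its brighter probe set (log2 difference -0.34 ± 0.52). The dimmer one gave 46.1 and 45.4 against 64.9 and 49.4 (0.19 ± 0.36), with the opposite sign and no overlap. The labels do not place the mutation in the transcript, so this does not check the genotypes.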

How the data were processed

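The authors deposited linear intensities per probe set that were already scaled per array, as their trimmed mean (2% off each end) was 165 throughout. No software or background correction is named in the sources used here. Arrays have no read depth, and their number limits the precision.

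Intensities were transformed to log2(intensity + 32), which understates differences of dim probe sets. After dropping 64 controls from 22690 probe sets, the brightest 60% by mean (13576) went into limma 3.58.1, R 4.3.3 (lmFit, eBayes with an intensity trend, two-sided, Benjamini-Hochberg over all tested, threshold 0.05; residual degrees of freedom 2, prior 8.64). The fit was tested on simulated data. Groups followed the titles. Genes were named from the platform annotation, and a gene is represented by its brightest probe set.

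The members and lists were chosen with earlier results of these data known. Named were all members and Hr. Of the other pathway genes tested, 13 did not overlap between genotypes or had an unadjusted p under 0.05, and the 8 with the smallest p were named; Nog, Chrd, the other genes listed by role and the dim markers were named after their values were seen. Genes of like pattern were not sought, because 4 samples are too few. Settings tried were pseudocounts of 8 and 64, no filter, quantile normalization, median centring, eBayes without trend or robust, the mean of a gene's probe sets, groups by the strain field, and each sample left out.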

Additional observations from a re-analysis of the deposited data

How the results depend on the processing

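Over the 13 other settings, 124 of 130 values of single members kept their sign and 6 turned. This includes no filter, eBayes without trend and robust eBayes, which cannot change a difference, so the signs there were fixed in advance. The 7 members whose groups did not overlap also could not turn under another pseudocount or with a sample left out. Members with a single probe set could not turn under the mean of probe sets. The values that turned were 3 of Bmp4, 2 of Id1 and 1 of Id3. The 124 therefore do not measure how stable the signs are. In the settings with 2 samples for each genotype, 0 members passed an adjusted p under 0.05 (limma). With groups by the strain field (1 homozygous sample against 3), 3 members had groups that did not overlap, beside 43.3% of all probe sets, the median difference of the members was -0.012, Bmp4 was at -0.42 and Id1 at -0.38. With single samples left out, Bmp4 ranged from -0.18 to 0.87, Id1 from -0.049 to 0.998, Id3 from -0.29 to 0.21 and the median from 0.094 (without homozygous replicate 3) to 0.64. The number of probe sets called was 0 to 51 with single samples left out, and 0 under every other setting, with 258 to 1186 at an unadjusted p under 0.05 over the 13. The 51 came without heterozygous replicate 3, where heterozygous replicate 4 is the only control and is assumed to vary like the homozygous samples; 0 of them were members, 42 were higher in homozygous samples, and the cause was not tested. Bmp2 overlapped with quantile normalization and Bmpr1a on the mean of its probe sets. The scalings moved the median of all probe sets by less than 0.1. The median 95% interval reached 0.93 (log2) to either side, which limits what could be detected. No paired analysis was possible because the genotypes share a single replicate number.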
